A study of Mus musculus with 4 samples.

Results

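The NFIC peak list of mouse pancreas held 1562 peaks on transposable elements among 15824 peaks. A peak was taken as an element peak when its detailed annotation named an LTR, LINE, SINE or DNA element, which the annotation program HOMER assigns by the position of the peak centre. HOMER gives 1 annotation to each peak and places promoters, exons and transcript ends first, so all 1562 element peaks lay in introns (815 peaks) or between genes (747 peaks). A further 92 peaks on other repeat annotations were not counted as element peaks. Values were compared with those of the 9732 intron and intergenic peaks whose annotation named no LTR, LINE, SINE or DNA element, called comparison peaks below.

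The study asked where nuclear factor I/C (NFIC) is bound across the genome of adult pancreas. Chromatin of wild-type pancreas from mice labelled as a mixed strain, 8 to 12 weeks old, was immunoprecipitated with an NFIC antibody in 3 libraries, and 1 input library was made without antibody. The deposited list is 1 merged list on the mm10 genome, with no value for any single library, so the values below carry no replicate error and the depth behind a peak is unknown. Whole pancreas was used, so the cell type of a peak is not known, and the list holds no expression values against which the tissue label could be checked. All intervals are 95% Wilson intervals or 95% intervals of an odds ratio, and they cover counting error only. Peaks are positions in 1 merged list and not replicates, and copies of 1 repeat share sequence, so the p-values describe this list.

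NFIC belongs to the nuclear factor I family, whose members bind DNA as dimers and contact the arm TGGC and its mirror arm GCCA on the same face of the helix. Transposable elements are sequences that copied or moved themselves through the genome. LTR elements are remains of retroviruses (the families ERV1, ERVK and ERVL) and of the related MaLR elements. LINEs such as L1 and the older L2 encode a reverse transcriptase. SINEs are short, borrow the LINE machinery and derive from small cellular RNAs: mouse B1, listed under the family name Alu, comes from the RNA of the signal recognition particle, whereas B2, B4 and the ancient MIR contain tRNA-derived parts. DNA transposons such as hAT-Charlie and Tigger moved by excision and are fossils in the mouse. Some elements carry transcription factor sites in their consensus sequence, and B2 is known for sites of the chromatin insulator protein CTCF.

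One peak of each class is printed first, to show the NFI full site inside an element. Each is the highest-scoring peak of its class that held both arms without mismatch, among annotations without a question mark. The sequence is the whole 173 bp peak on the plus strand of GRCm38 (mm10), 5′ to 3′, in lower case with the full site in capitals. LTR79, an ERVL-family LTR, and MIRb, a MIR element, lay in the first introns of Gm10804 and Bscl2, at 2225 bp and 224 bp from the transcription start site (TSS). L1MD, an L1 element, lay in intron 2 of Igf1r, and the DNA transposon Tigger13a lay between genes, at -13993 bp from the TSS of Kcnk15.
LTR79 near Gm10804 (chr2:93454958-93455130, + strand, score 24.9): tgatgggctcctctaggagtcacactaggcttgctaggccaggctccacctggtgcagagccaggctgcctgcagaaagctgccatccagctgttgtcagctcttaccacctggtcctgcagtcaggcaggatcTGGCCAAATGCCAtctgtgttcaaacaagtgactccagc
MIRb near Bscl2 (chr19:8840641-8840813, + strand, score 24.1): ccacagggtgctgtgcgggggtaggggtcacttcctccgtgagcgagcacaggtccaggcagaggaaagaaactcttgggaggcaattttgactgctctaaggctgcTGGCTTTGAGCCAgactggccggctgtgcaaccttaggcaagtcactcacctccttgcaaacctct
L1MD near Igf1r (chr7:68070762-68070934, + strand, score 13.7): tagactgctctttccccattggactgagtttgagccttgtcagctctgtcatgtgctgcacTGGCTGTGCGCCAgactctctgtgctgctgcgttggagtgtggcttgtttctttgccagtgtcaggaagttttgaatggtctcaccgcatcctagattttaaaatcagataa
Tigger13a near Kcnk15 (chr2:163839671-163839843, + strand, score 14.5): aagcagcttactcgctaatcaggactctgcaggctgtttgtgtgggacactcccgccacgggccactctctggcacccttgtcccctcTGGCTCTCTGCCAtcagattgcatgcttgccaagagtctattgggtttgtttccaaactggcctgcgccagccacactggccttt

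The LTR class had the most peaks, with 629 (40.3%, 37.9 to 42.7), followed by SINEs with 542 (34.7%, 32.4 to 37.1), LINEs with 272 (17.4%, 15.6 to 19.4) and DNA transposons with 119 (7.62%, 6.40 to 9.04). Element peaks were 9.87% (9.42 to 10.3) of all peaks and 13.8% (13.2 to 14.5) of the intron and intergenic peaks. Intergenic peaks lay on elements in 15.4% (14.4 to 16.5) of cases and intron peaks in 12.6% (11.8 to 13.5). How much of the genome each class covers was not analysed here, so these shares say nothing of enrichment or depletion.

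Among families, ERVL-MaLR had 242 peaks, ERVK 214, L1 173, B4 172, B2 118, MIR 117, Alu (B1) 112, ERVL 102, hAT-Charlie 86, L2 82 and ERV1 59. These 11 families, each with at least 20 peaks, held 1477 of the element peaks, and 20 smaller families shared the other 85. The peaks were spread over 403 repeat names, 180 of which had 1 peak, and 20 names had at least 15 peaks. The most frequent names were SINEs: B3, of the B2 family, had 69 peaks, B4A 50, MIRb 46, RSINE1 42 and ID_B1 41. MTD, an ERVL-MaLR LTR with 33 peaks, was the LTR name with the most peaks, and L2b with 32 was the LINE name with the most. Of the LTR peaks, 95 of 629 (15.1%, 12.5 to 18.1) lay on the internal parts of the elements. The plot of peaks by family shows this order.

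**Figure D1:**
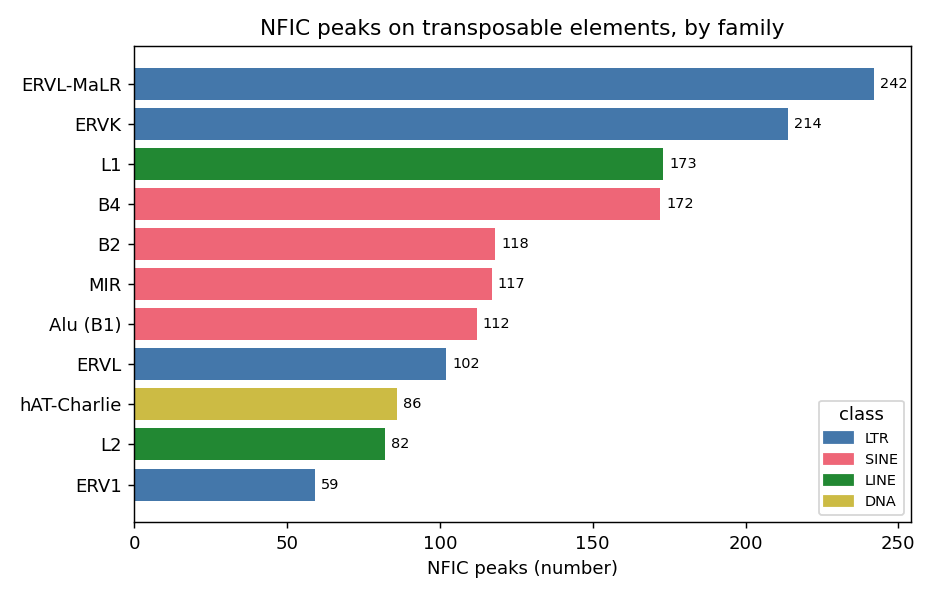
Number of NFIC peaks on each element family with at least 20 peaks, coloured by class. ERVL-MaLR (242) and ERVK (214) lead, and L1 (173) and B4 (172) follow with nearly equal numbers.

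The share of DNA set in lower case in the reference genome, which marks recognised repeats, differed between families. It averaged 23.6% of the peak's bases in element peaks and 6.91% in comparison peaks, and 263 element peaks (16.8%) lay in lower case over at least 50% of their length. B2 peaks averaged 52.3%, Alu (B1) peaks 42.2% and ERVK peaks 31.6%, while L2 peaks averaged 7.19% and MIR peaks 6.20%. This reference leaves most of the old elements in upper case, and for them the HOMER annotation is the only label.

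Element peaks held the NFI full site nearly as often as comparison peaks. The site was counted when TGGC and GCCA, with 5 bases between them, occurred with at most 1 mismatch over the 8 fixed bases in 200 bp centred on the peak. The site reads the same on both strands. It was present in 850 of 1562 element peaks (54.4%, 51.9 to 56.9) and in 5493 of 9732 comparison peaks (56.4%, 55.5 to 57.4), with an odds ratio of 0.921 (0.828 to 1.03, p = 0.138, two-sided Fisher's exact test). Over all peaks of the list the share was 51.8%, lower than in both groups, since promoter, exon and transcript-end peaks held the site in 40.8% of cases. For scale, 5.85% of all 13237130 tiles of 200 bp in the genome held the site, and 5.18% of the tiles that were at least 50% in lower case. Without mismatch it was found in 17.2% of element peaks, 15.6% of comparison peaks and 0.287% of genome tiles. The site lay close to the peak centre in both groups, at a median distance of 24 bp in each.

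Against comparison peaks, no class passed the test. SINE peaks held the site in 58.7% of cases (54.5 to 62.7), LTR peaks in 53.1% (49.2 to 57.0), DNA peaks in 52.1% (43.2 to 60.9) and 136 of the 272 LINE peaks (44.1 to 55.9%). The largest difference between 2 classes was that of SINE and LINE peaks, 8.67 percentage points with an odds ratio of 1.42 (1.06 to 1.90), and it did not pass after adjustment over the 6 pairs (adjusted p = 0.123, two-sided Fisher's exact test with Benjamini-Hochberg adjustment).

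L1 was the family that passed the test against comparison peaks. The site was found in 77 of 173 L1 peaks (44.5%, 37.3 to 52.0), with an odds ratio of 0.619 (0.457 to 0.838, adjusted p = 0.0213 over 11 families, two-sided Fisher's exact test). The call was lost with 0 mismatches (odds ratio 0.870, adjusted p = 0.822, Fisher's exact test) and against all peaks without an element (odds ratio 0.756, adjusted p = 0.265). MIR had the highest share, 64.1% (55.1 to 72.2), and B4 followed with 61.6% (54.2 to 68.6), and neither passed (adjusted p = 0.412 for each, Fisher's exact test). L2, the other large LINE family, held the site in 59.8% of its peaks (48.9 to 69.7), and B2 in 59.3% (50.3 to 67.8). ERVK and ERVL-MaLR, the largest LTR families, held it in 51.9% and 51.7%. The plot of site shares shows every family far above the genome tiles, with L1 the family whose interval lies below the comparison line. The tile share covers the whole genome and not the unbound copies of a family, so it shows no enrichment within a family.

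**Figure D2:**
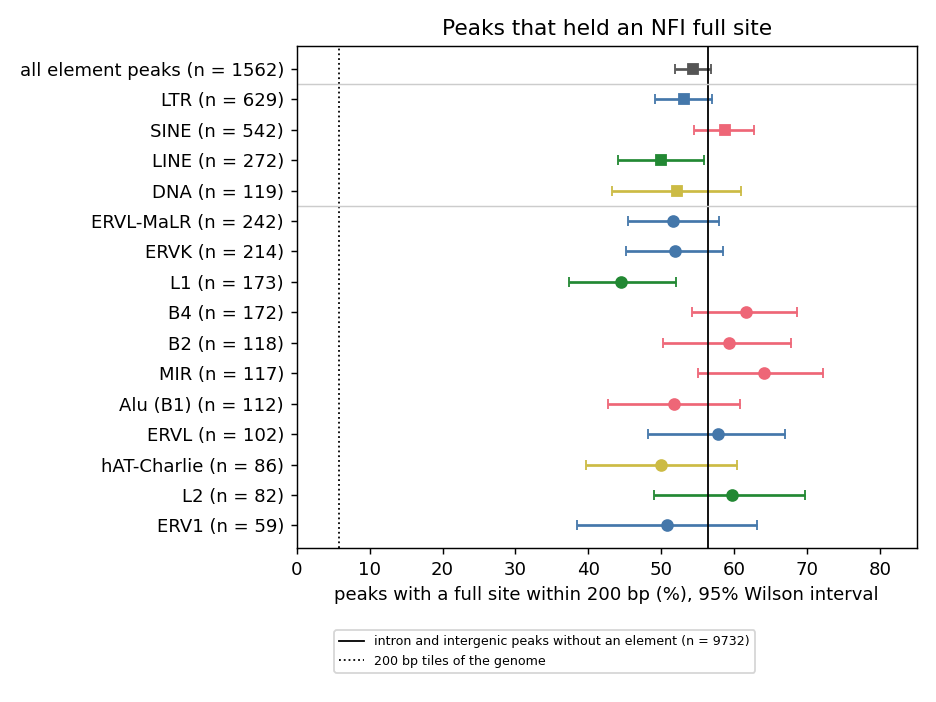
Share of peaks with an NFI full site, in percent with 95% Wilson intervals, for all element peaks, the 4 classes (squares) and the 11 families (circles). The solid line is the share in comparison peaks (56.4%) and the dotted line that in 200 bp tiles of the genome (5.85%).

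Repeat names differed more widely than classes, on small numbers. The site was held by 17 of 21 B2_Mm2 peaks (81.0%), 17 of 21 MER58A peaks (81.0%), 14 of 18 Lx8 peaks (77.8%) and 30 of 39 B4 peaks (76.9%). MER58A is a hAT-Charlie DNA transposon and Lx8 a rodent L1. The lowest shares among the 20 names were those of MTD (14 of 33, 42.4%), B3A (12 of 28, 42.9%) and RMER19B (9 of 21, 42.9%). The site without mismatch was present in 47.6% of B2_Mm2 peaks and 38.9% of Lx8 peaks, against 17.2% of all element peaks. These shares are descriptions of single repeat names and were not tested.

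The single arm with a preceding T and a following A, TTGGCA on either strand, was searched as a second NFI motif. It can overlap the first arm of the full site and, read on the other strand as TGCCAA, the second arm. It was present in 653 element peaks (41.8%) and 3695 of 9732 comparison peaks (odds ratio 1.17, p = 0.00392, two-sided Fisher's exact test), and in 33.6% of all peaks. LTR peaks (43.9%, adjusted p = 0.00697 over 4 classes), LINE peaks (48.2%, adjusted p = 0.00312) and DNA peaks (48.7%, adjusted p = 0.0235) held it more often than comparison peaks by the same two-sided Fisher's exact test, and SINE peaks (34.7%, adjusted p = 0.133) did not pass. Among families ERVK had the highest share (50.5%, 43.8 to 57.1) and B2 the lowest (15.3%, 9.87 to 22.8). Among repeat names, RMER19B, an ERVK LTR, held it in 17 of 21 peaks, while 9 of its peaks held a full site, and RSINE1 held it in 30 of 42 peaks with 19 full sites. Of the 712 element peaks without a full site, 314 (44.1%) held the single arm, and 398 of the 1562 element peaks (25.5%) held neither, close to the 25.6% of comparison peaks. Among families, B2 had the highest share of peaks with neither motif, 33.1%, and L2 the lowest, 15.9%.

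Element peaks are partly copies of each other. When the 1562 windows were aligned to one another, 517 (33.1%) matched at least 1 other, in 1643 pairs with a median identity of 80.5% over a median of 71 bp, and 1305 of these pairs were of 1 family. In 589 pairs both peaks held a full site, and in 237 of them (40.2%) the sites fell on the same aligned base. In all, 114 of the 850 element peaks with a site (13.4%) shared it in this way with another member.

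Shared sites came mainly from B2 and ERVK. In B2, 101 of 118 peaks aligned to another member and 36 of 70 sites were shared. In ERVK, 137 of 214 peaks aligned and 43 of 111 sites were shared. None of the 77 sites in L1 peaks, 75 in MIR peaks or 49 in L2 peaks was shared. A site could count as shared only in a peak that aligned to another. That held for 39 of 173 L1 peaks, 4 of 117 MIR peaks and 2 of 82 L2 peaks. The absence of shared sites in MIR and L2 therefore does not show where their sites lie within the repeat. Among names, B2_Mm2 shared 14 of 17 sites, RMER19B 7 of 9 and B3 20 of 41, while B4A, with 32 sites, and MIRb, with 33, shared none. Of B4A peaks 10 of 50 aligned to another, and of MIRb peaks 2 of 46. The plot of sites by repeat name shows these 2 patterns side by side.

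**Figure D3:**
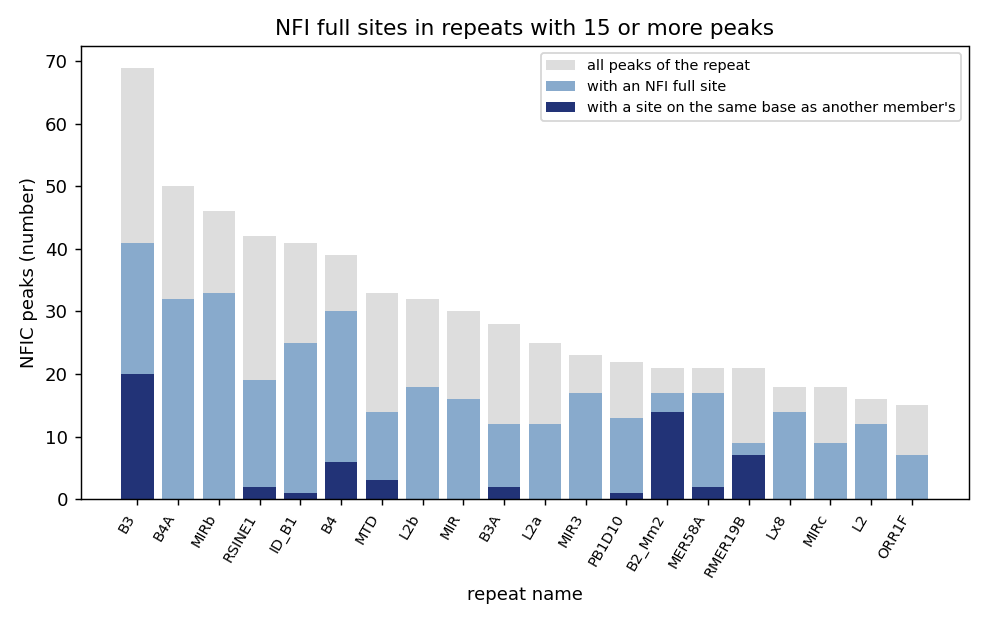
Peaks of the 20 repeat names with at least 15 peaks (grey), those with an NFI full site (light blue) and those whose site fell on the same aligned base as that of another element peak (dark blue), as nested bars. B3, B2_Mm2 and RMER19B have tall dark bars (20, 14 and 7 peaks), and MIRb and B4A, few of whose peaks aligned to another, have none.

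The shared site of the B2 family is shown in the 4 highest-scoring B2_Mm2 peaks and the 3 highest-scoring B3 peaks that had a shared site without mismatch, followed by the 2 highest-scoring B3 peaks whose shared site began with TGGT. Each line holds 33 bases of GRCm38, 5′ to 3′ on the strand given, turned so that copies of 1 name read in the same direction, with the site in capitals.
B2_Mm2 near Gm5766 (chr16:4289698-4289730, - strand, score 17.3): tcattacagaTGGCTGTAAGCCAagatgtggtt
B2_Mm2 near Nrg4 (chr9:55252245-55252277, - strand, score 10.2): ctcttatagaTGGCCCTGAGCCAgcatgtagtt
B2_Mm2 near Os9 (chr10:127125404-127125436, + strand, score 7.37): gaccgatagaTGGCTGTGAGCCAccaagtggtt
B2_Mm2 near Arl3 (chr19:46562279-46562311, + strand, score 7.37): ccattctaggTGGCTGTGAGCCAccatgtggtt
B3 near Gins2 (chr8:120599685-120599717, - strand, score 11.8): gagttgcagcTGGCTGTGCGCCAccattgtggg
B3 near Ifi35 (chr11:101450553-101450585, - strand, score 9.76): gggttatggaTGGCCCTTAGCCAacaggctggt
B3 near Fry (chr5:150331947-150331979, + strand, score 9.36): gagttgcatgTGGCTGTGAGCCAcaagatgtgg
B3 near Ube4b (chr4:149405276-149405308, - strand, score 7.97): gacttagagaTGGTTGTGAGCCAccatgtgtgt
B3 near Blm (chr7:80556407-80556439, - strand, score 6.77): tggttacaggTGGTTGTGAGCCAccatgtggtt

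The commonest 15 bases after the first arm among B2 sites were TGTGAGCCACCATGT. These 15 bases were searched in the whole genome on both strands, and the 4 bases before them were read. Outside peaks they occurred 58207 times, and the arm there was TGGT in 82.3% and TGGC in 3.77% (3.62 to 3.93). The stretch holds the second arm GCCA at the spacing of the full site. A copy with at most 1 mismatch in the first arm therefore holds that site. Outside peaks 83.7% of copies had 1 mismatch in the first arm, besides the 3.77% with none, so most copies without a peak held a full site. Under B2-family peaks the stretch occurred 10 times, with TGGT in 5 and TGGC in 4 (40.0%, 16.8 to 68.7). Put the other way, 4 of 2197 genome copies with TGGC (0.182%, 0.0708 to 0.467) and 6 of 48713 with 1 mismatch in that arm (0.0123%, 0.00565 to 0.0269) lay under a peak of any kind. The stretch was chosen from the peaks after their sequences were seen and the copies under peaks are few, so no test was made.

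Shared sites were also found in ERVK and, in smaller numbers, in other families. ERVL-MaLR shared 10 of 125 sites, B4 9 of 106 and Alu (B1) 6 of 58. ERVL shared 5 of 59, ERV1 3 of 30 and hAT-Charlie 2 of 43. The lines show the 4 highest-scoring of the 7 shared sites of RMER19B, and those of both MER58A peaks with a shared site.
RMER19B near Acvr2a (chr2:47857379-47857411, - strand, score 13.1): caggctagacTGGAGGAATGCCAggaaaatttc
RMER19B near Snhg11 (chr2:158373350-158373382, + strand, score 12.5): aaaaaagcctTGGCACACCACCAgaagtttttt
RMER19B near Mir5099 (chr12:36662692-36662724, + strand, score 11.2): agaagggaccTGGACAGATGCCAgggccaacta
RMER19B near Tnfrsf9 (chr4:150962409-150962441, + strand, score 11.2): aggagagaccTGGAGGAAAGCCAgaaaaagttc
MER58A near Chd7 (chr4:8950147-8950179, + strand, score 5.78): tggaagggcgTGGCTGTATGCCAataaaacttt
MER58A near Tbc1d1 (chr5:64204089-64204121, + strand, score 5.38): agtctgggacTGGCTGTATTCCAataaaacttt

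MIRb peaks held the site in 33 of 46 cases (71.7%), and none of these sites was shared. Only 2 of the 46 peaks aligned to another element peak, so sharing could hardly be counted in MIRb. The 3 highest-scoring MIRb peaks after that of Bscl2 are shown.
MIRb near Dgkz (chr2:91955188-91955220, - strand, score 16.1): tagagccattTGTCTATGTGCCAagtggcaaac
MIRb near Smad3 (chr9:63699374-63699406, - strand, score 13.7): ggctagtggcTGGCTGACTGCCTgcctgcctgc
MIRb near Dlgap4 (chr2:156727007-156727039, + strand, score 13.5): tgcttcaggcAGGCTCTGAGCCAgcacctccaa

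Motifs of other transcription factors differed between families, most widely that of CTCF. Fixed consensus sequences of 14 other factors were searched on both strands of the 200 bp window. Over all element peaks 2 of the 14 differed from comparison peaks. GGGCGG, bound by SP and KLF factors, was present in 61 element peaks (3.91%) and 10.8% of comparison peaks, with an odds ratio of 0.336 (adjusted p = 1.24e-19, two-sided Fisher's exact test with Benjamini-Hochberg adjustment), and in 21.1% of all peaks. CCAAT, bound by NFY, was present in 30.6% of element peaks and 24.0% of comparison peaks, with an odds ratio of 1.39 (adjusted p = 3.35e-07, Fisher's exact test), and in 24.7% of all peaks. CCAAT read on the other strand can overlap TTGGCA. It can also overlap the second arm of the full site where AT follows, as in both MER58A lines printed above. How often this occurred was not counted. The GC content of the windows differed as well, with a median of 49.0% in element peaks and 52.5% in comparison peaks. Comparison peaks also lay within 1000 bp of a TSS more often, in 6.10% of cases against 1.15%. Peaks labelled as CpG islands outside promoters could be comparison peaks but not element peaks. The part of these differences in the motif shares was not tested.

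B2 peaks carried the CTCF motif. It was found, with up to 1 mismatch, in 71 of 118 B2 peaks (60.2%, 51.2 to 68.5), against 12.0% of comparison peaks and 12.1% of all peaks. B2_Mm2 peaks held it in 18 of 21 cases, B3 peaks in 44 of 69 and B3A peaks in 9 of 28. In the genome, 95.9% of the 58207 copies of the B2 stretch outside peaks had the motif in the surrounding 200 bp, and 10 of the 11 copies under peaks did. Whether the CTCF match uses bases of that stretch was not examined, so the motif and the shared NFI site cannot be taken as separate features. As a class SINE peaks held CTCF in 17.2% of cases (odds ratio 1.51, adjusted p = 0.00418 over 56 tests, two-sided Fisher's exact test). Of the 93 SINE peaks with the motif, 71 were B2 peaks. The other large SINE families lay below the comparison peaks, with 3.49% in B4, 3.57% in Alu (B1) and 7.69% in MIR, so the higher class share came from B2. LTR peaks (7.15%, adjusted p = 0.000994) and LINE peaks (6.62%, adjusted p = 0.0285) held it less often than comparison peaks by Fisher's exact test. Among peaks at or above the median score the SINE call (odds ratio 1.32, adjusted p = 0.482, Fisher's exact test) and the LINE call (odds ratio 0.477, adjusted p = 0.245) were lost. The LTR call was lost with element peaks at least 50% in lower case (odds ratio 0.305 on 100 LTR peaks, adjusted p = 0.134, Fisher's exact test).

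The motif of NR5A2, a nuclear receptor of acinar cells, was highest in B1 elements. CCAAGGCCA, CCAAGGTCA, TCAAGGCCA or TCAAGGTCA was present in 18 of 112 Alu (B1) peaks (16.1%, 10.4 to 24.0), 13 of 117 MIR peaks (11.1%) and 7.56% of B4 peaks, against 4.04% of comparison peaks and 3.65% of all peaks. ID_B1, a B4-family SINE with a B1 part, held it in 9 of 41 peaks and PB1D10, an old B1, in 4 of 22. SINE peaks as a class held it in 8.49% of cases (odds ratio 2.20, adjusted p = 0.000122, two-sided Fisher's exact test), whereas L1 and L2 peaks held it in 1.16% and 1.22%. The SINE call was lost at or above the median score (odds ratio 1.83, adjusted p = 0.162, Fisher's exact test) and with element peaks at least 50% in lower case (adjusted p = 0.428). GATAAG, bound by GATA factors, was present in 22.2% of MIR peaks (15.6 to 30.6), in 10 of the 30 peaks on the repeat named MIR, in 9.12% of comparison peaks and in 7.75% of all peaks. Over classes GATAAG did not pass. The E-box of bHLH proteins such as PTF1A, CAGATG or CAGCTG, was present in 28.8% of SINE peaks and 36.7% of comparison peaks (odds ratio 0.699, adjusted p = 0.00133, Fisher's exact test), with the lowest share in Alu (B1) peaks, 20.5%. That call was lost against all peaks without an element (odds ratio 0.845, adjusted p = 0.173, Fisher's exact test), at or above the median score (0.697, adjusted p = 0.152) and with element peaks at least 50% in lower case (0.582, adjusted p = 0.114). It was present in 32.5% of all peaks.

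The FOX motif was highest in DNA transposons and L2. TATTTAC or TGTTTAC was present in 23 of 119 DNA peaks (19.3%) and 7.63% of comparison peaks, with an odds ratio of 2.90 (adjusted p = 0.000413, two-sided Fisher's exact test), and in 6.38% of all peaks. Within that class hAT-Charlie peaks held it in 18 of 86 cases, and MER58A peaks in 9 of 21. LINE peaks held it in 12.1% of cases (odds ratio 1.67, adjusted p = 0.0433, Fisher's exact test), with 18.3% (11.4 to 28.0) in L2 and 10.4% in L1. DNA peaks also had the highest share of CCAAT among classes, 39.5% (odds ratio 2.06, adjusted p = 0.00133, Fisher's exact test). Of the 56 tests of 14 motifs in 4 classes, 15 passed, 8 with a higher and 7 with a lower share than comparison peaks, and SP was lower in all 4 classes. Of these 15 calls, 14 were lost under at least 1 of the 7 alternatives run, and SP in SINE peaks was kept in all 7. With element peaks at least 50% in lower case 13 were lost. That setting kept 131 SINE, 100 LTR and 31 LINE peaks and 1 DNA peak, so a lost call there need not mean a changed share. At or above the median score 10 were lost, among them FOX in LINE peaks (adjusted p = 0.162, Fisher's exact test), NFY in DNA peaks (odds ratio 1.49, adjusted p = 0.482) and SP in DNA peaks (adjusted p = 0.162). NFY in LINE peaks was lost in 5 alternatives, and SP in DNA peaks also in 400 bp (adjusted p = 0.105, Fisher's exact test). The families and repeat names are given as shares without a test. The plot of motif shares shows CTCF as a single dark cell, in B2.

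**Figure D4:**
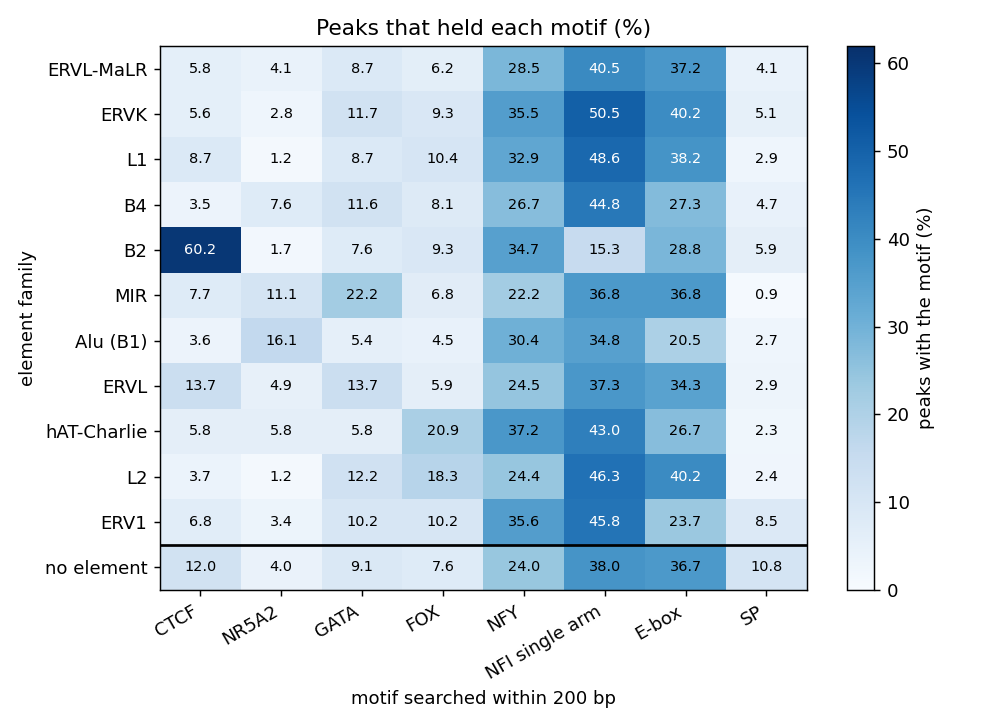
Share of peaks, in percent, that held each of 8 motifs within 200 bp, for the 11 families and, below the line, the comparison peaks (no element). The darkest cell is CTCF in B2 (60.2%), and NR5A2 in Alu (16.1%), GATA in MIR (22.2%) and FOX in hAT-Charlie (20.9%) are the highest of their columns.

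Element peaks had lower peak scores than comparison peaks. The score is the deposited peak score, whose scale is not stated, so it was used by rank. The median was 6.08 in element peaks (range 3.39 to 27.3) and 6.77 in comparison peaks (range 3.39 to 68.1). A score at or above 6.57, the median of the list, was reached by 692 of 1562 element peaks (44.3%, 41.9 to 46.8) and 53.8% of comparison peaks (52.8 to 54.8), with an odds ratio of 0.683 (0.613 to 0.760, p = 3.13e-12, two-sided Fisher's exact test). Over all peaks the share was 51.6%, since peaks tied at the median count as upper.

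The lower scores were found in SINE, LINE and LTR peaks. The upper range was reached by 41.1% of SINE peaks (adjusted p = 4.05e-08 over 4 classes, two-sided Fisher's exact test), 42.3% of LINE peaks (adjusted p = 0.000275) and 45.6% of LTR peaks (adjusted p = 0.000147). DNA peaks reached it in 56.3% of cases (47.3 to 64.9, adjusted p = 0.644), above SINE peaks (adjusted p = 0.0182 over 6 pairs, Fisher's exact test) and LINE peaks (adjusted p = 0.0343). Of the 11 families, 6 were lower than comparison peaks: B2 (36.4%), Alu (B1) (37.5%), B4 (37.8%), L1 (41.0%), ERVL-MaLR (41.7%) and ERVK (45.8%), with adjusted p from 0.000421 to 0.0405 by Fisher's exact test. MIR (49.6%), ERVL (52.9%), hAT-Charlie (58.1%), L2 (47.6%) and ERV1 (45.8%) did not pass. With the upper quartile of scores as the limit, B4 (20.3%, adjusted p = 0.0852) and ERVK (22.0%, adjusted p = 0.160) no longer passed Fisher's exact test, and ERVK was also lost without chromosome X (adjusted p = 0.0639) and against all peaks without an element (adjusted p = 0.0987).

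Scores moved with the lower-case share of the sequence. Element peaks that were at least 50% in lower case reached the upper range in 32.3% of cases (27.0 to 38.2), and the other element peaks in 46.7% (44.0 to 49.4). Its part in the scores was not tested. Scores were lower both with and without a full site: 46.8% of element peaks with a site reached the upper range, against 59.2% of comparison peaks with a site, and 41.3% against 46.9% without one. Element peaks with a site without mismatch reached it in 37.9% of cases. Single repeats ranged from ORR1F, with 3 of 15 peaks in the upper range, and Lx8, with 4 of 18, to RMER19B, with 13 of 21. These extremes did not follow the lower-case share, which averaged 8.98% in ORR1F, 14.6% in Lx8 and 48.1% in RMER19B. Other names did, such as B2_Mm2, with 74.5% in lower case and 6 of 21 peaks in the upper range, and MIRb, with 6.60% and 26 of 46. Across the 20 names the relation was not tested.

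**Figure D5:**
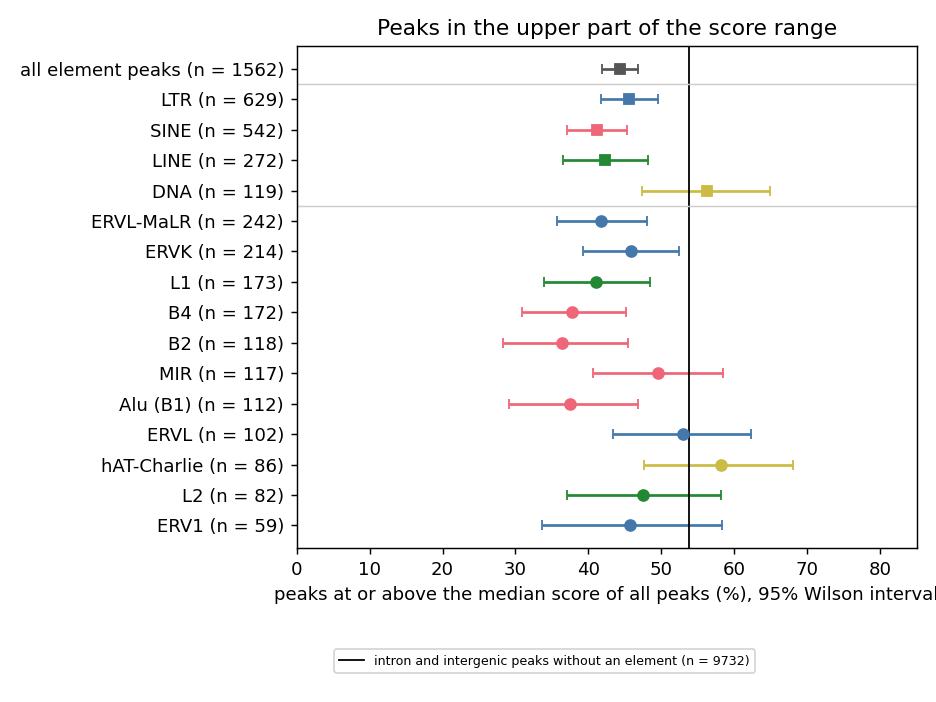
Share of peaks with a score at or above the median of the whole list, in percent with 95% Wilson intervals, for all element peaks, the 4 classes (squares) and the 11 families (circles). The line is the share in comparison peaks (53.8%), and SINE families other than MIR lie farthest to its left, between 36.4% and 37.8%.

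The highest scores belonged to single, mostly old elements. The first was a peak on MamRep605, an LTR with an uncertain family, at -11173 bp from the TSS of Skil, a corepressor of SMAD signalling, with a score of 27.3 and rank 56 in the whole list. It held the site without mismatch at the peak centre. An L1Md_T copy in an intron, with Vav3 as nearest gene, followed with 25.5. It was in lower case throughout and held no full site. LTR79 in Gm10804 (24.9) and MIRb in Bscl2 (24.1), printed above, were next, followed by MLT1F1 upstream of Ttc39b (23.9), RLTR34D_MM upstream of Zfp706 (22.7), LFSINE_Vert near Gadd45b (22.3), L2b near Gm5820 (22.1), MLT1H near Tmem217 (22.1), Charlie25 near Apobec3 and MLT1G1 near Mex3c (21.5 each). Of these 11 peaks, 8 held a full site. Skil, Ttc39b and Zfp706 are nearest genes by position, which does not show that the peaks act on them.

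L1 peaks made up 7 of the 20 peaks of the list with the most tags on the expected side of the centre. The list gives for each peak a fraction of tags that lie on the expected side of the peak centre, with a median of 0.698 in element peaks and 0.690 in comparison peaks. It was at least 0.9 in 20 peaks of the whole list, 10 of them on elements, and 7 of these were L1 peaks (4.05% of 173, 1.97 to 8.12, against 0.0617% of comparison peaks, 0.0283 to 0.134). None of the 7 held a full site, all were at least 50% in lower case and 5 were in lower case throughout. The highest was a peak on L1_Mus1 near Tmem182, with a fraction of 0.973 and a score of 21.3, and the L1Md_T peak near Vav3 had 0.941. Young L1 copies are nearly identical, and how reads that match several copies were placed is not given in the sources used here, so the values of these peaks are uncertain. This limit of 0.9 was chosen after the values were seen, and no test was made.

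The classes differed in their distance from genes. A distance over 100 kb from the nearest TSS was found for 174 element peaks (11.1%) and 10.4% of comparison peaks, with an odds ratio of 1.08 (0.908 to 1.28, p = 0.399, two-sided Fisher's exact test), against 7.6% of all peaks. SINE peaks were that far in 7.01% of cases, less often than comparison peaks (adjusted p = 0.0239 over 4 classes, Fisher's exact test), and LINE peaks in 15.4%, more often (adjusted p = 0.0239). The SINE call was lost against all peaks without an element (odds ratio 0.971, adjusted p = 0.933, Fisher's exact test) and at or above the median score (odds ratio 0.562, adjusted p = 0.222). It was also lost with element peaks at least 50% in lower case (odds ratio 0.559 on 131 SINE peaks, adjusted p = 0.227, Fisher's exact test). The LINE call was lost at or above the median score (odds ratio 1.15, adjusted p = 0.624, Fisher's exact test). SINE peaks differed from LINE peaks (adjusted p = 0.00151 over 6 pairs, Fisher's exact test) and from LTR peaks, 13.0% of which were that far (adjusted p = 0.00207). Among families L1 (17.3%) and ERV1 (22.0%) passed, each with adjusted p = 0.0472, and both lost the call without chromosome X (adjusted p = 0.0583 and 0.0921, Fisher's exact test), with peaks within 1000 bp merged (adjusted p = 0.0622 for each) and at or above the median score (adjusted p = 0.771 and 0.185). Close to a TSS element peaks were few, with 18 (1.15%) within 1000 bp, against 594 (6.10%) of comparison peaks. The median distance was 20763 bp in element peaks and 20162 bp in comparison peaks.

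Element peaks were spread thinly over genes. They had 1402 nearest genes, of which 1266 had exactly 1 element peak, and for 479 genes all peaks in the list lay on elements. Fryl, a large gene related to the Drosophila gene furry, was the only gene with at least 5, with 5 of its 7 peaks on elements of 5 families: an Lx8, a B3, an MLT2D, a B4A and an L2b copy, with scores from 4.78 to 8.56. Gm5820 had 4 element peaks among 5, and Xylt1, which encodes a xylosyltransferase of proteoglycan synthesis, 4 among 21.

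Few element peaks lay near acinar genes. In a list of 24 acinar transcription factors, 23 had a peak and 3 an element peak. On elements lay 3 of their 72 peaks (4.17%, 1.43 to 11.5), and 9.87% of all peaks lies within that interval. Only intron and intergenic peaks can be element peaks. Of the 64 such peaks of these factors 4.69% were on elements, against 13.8% of all such peaks. No interval was computed for this share, and the difference was not tested. Nr0b2, a nuclear receptor that lacks a DNA-binding domain, had a peak 9907 bp downstream of its TSS on RLTR26B_MM, an ERVK LTR, with a score of 18.1 and a site without mismatch. Gata6, which maintains acinar differentiation, had a peak on Lx6 with a score of 17.5, and Nr5a2 had a peak on RMER19C with a score of 4.78. In a list of 40 genes of digestive enzymes and secretory proteins, 5 of 43 peaks were on elements (11.6%, 5.07 to 24.5), and 9.87% of all peaks lies within that interval. Of the intron and intergenic peaks of these genes 16.1% were on elements. All 5 element peaks were on LTRs, and the highest score was that of RMER19B2 near Rnase1, the pancreatic ribonuclease, with 17.5 and a site without mismatch. The others lay near the amylase gene Amy2b (6.77), the elastase gene Cela3a (4.58), and Cuzd1 (4.38) and Dmbt1 (7.17), which encode secreted proteins.

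Among 38 genes of ER stress and the unfolded protein response, 8 of 60 peaks were on elements (13.3%, 6.91 to 24.2), against 9.87% of all peaks, which lies within the interval. Of the intron and intergenic peaks of these genes 17.8% were on elements, against 13.8% of all such peaks. Edem1, which helps remove misfolded glycoproteins from the ER, had 3 of the 8, all LTRs: RLTR25B with a score of 9.56, RMER19B2 with 14.7 and a site without mismatch, and MER74C with 7.57. Ddit4, a stress-induced inhibitor of mTORC1, had a peak on B1_Mur4 with a score of 10.2, no full site, and lower case throughout. The stress sensors Atf6 (L1M2, 3.59), Eif2ak3 (B1F2, 4.18) and Ern1 (B3, 4.18) each had 1 low-scoring element peak without a full site, and Sel1l, an ERAD component, had 1 on MER68-int (7.37).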

How the data were processed

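NFIC ChIP-Seq was made from 3 libraries of mouse pancreas, with 1 input. Per the labels, the submitters' processing notes name BWA, Picard and MACS2 and the mm10 genome, with no versions. The paper's methods instead name the RUbioSeq+ pipeline and HOMER for peak calling, so the program behind the peak scores is uncertain. The authors deposited 1 merged peak list annotated with HOMER, every peak 173 bp wide. The authors deposited a peak score for each merged peak, whose scale is not given in the sources used here, and it was used by rank. It also holds a deposited fraction of tags per peak and distances to the nearest TSS. Read depth is unknown, so precision rests on the number of peaks.

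Element peaks, repeat names and families were read from the detailed annotation. Sequences came from GRCm38.p6, which is mm10, with pysam 0.24.0. Members, lists and tests were chosen with earlier results of these data known. Counts of peaks were compared by two-sided Fisher's exact tests (scipy 1.17.1) at 0.05 with Benjamini-Hochberg adjustment over 4 classes, 6 pairs of classes, 11 families, 14 motifs or 56 pairs of motif and class. The scripts were tested on simulated data. Element windows were aligned with blastn 2.17.0 at an e-value limit of 1e-5.

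Named were families with at least 20 peaks, repeat names with at least 15, the 10 highest-scoring element peaks with ties, nearest genes with at least 5 element peaks, and members of 3 gene lists with an element peak. Gm5820, Xylt1 and the peaks with high tag fractions were added after their values were seen. For sequences, the highest-scoring peaks with a full site were taken for each class and for repeat names with at least 15 peaks. Shared sites were then picked among these, leaving out chromosome 18 and, for the classes, annotations with a question mark. Alternatives changed the mismatches, window, comparison group, score limit, uncertain annotations, merging of peaks within 1000 bp, chromosome X and the element definition.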

Additional observations from a re-analysis of the deposited data

How the results depend on the processing

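The lower share of element peaks in the upper score range passed under all 6 alternatives run, with odds ratios from 0.410 to 0.721. The site comparison depended on the peaks used: against all peaks without an element the odds ratio was 1.12 (p = 0.0287, two-sided Fisher's exact test), since promoter peaks hold fewer sites, and among peaks at or above the median score it was 0.828 (p = 0.0222, Fisher's exact test). The number of classes that passed for the site went from 0 to 1 with 0 mismatches (SINE), with the peak as deposited (LINE), against all peaks without an element (SINE), at or above the median score (LINE) and with element peaks at least 50% in lower case (LINE). The number of families went from 1 to 0 with 0 mismatches (L1 lost), to 2 against all peaks without an element (B4 and MIR, with L1 lost) and to 3 at or above the median score (ERVK, L1 and MIR). The share over 100 kb from a TSS gave 1.61 against all peaks without an element (p = 1.47e-07, Fisher's exact test). Of the other motifs, 6 passed in 400 bp, 10 against all peaks without an element and 4 with element peaks at least 50% in lower case, against 2. In that last setting CTCF turned to 1.93 over all element peaks (adjusted p = 0.000380, Fisher's exact test) and FOX in LINE peaks to 0.403 (adjusted p = 1). The lower-case setting kept 31 LINE peaks and 1 DNA peak, so its values for these classes rest on few peaks. Element peaks were 8.47% of peaks at or above the median score. With intron and intergenic peaks as the denominator the share was 13.8%, and that of LTR peaks was 5.57%. With 12 bases of the B2 stretch, chosen after seeing the data, TGGC stood in 46.2% of copies under B2 peaks. The cause of these changes was not tested where the alternative does not show it. Of the 15 calls of a motif in a class, 14 ended under at least 1 alternative. The single arm and the comparisons between classes were run under no alternative. No paired analysis was possible because the list holds no value for a single library, and no library could be left out for the same reason.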
